A study of Mus musculus with 12 samples.

Results

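The 10 genes described here encode enzymes that make NADPH or supply what is needed to make it. They were chosen by symbol: *G6pdx*, *Pgls*, *Pgd*, *Rpia*, *Tkt* and *Taldo1* of the pentose phosphate pathway, the NADP-linked isocitrate dehydrogenases *Idh1* and *Idh2*, the transhydrogenase *Nnt* and the NAD kinase *Nadk*. The symbol *Nnt* stood for 2 gene identifiers, of which the second had no count in any library. The other 10 of the 11 identifiers passed the filter on low values, which asked for at least 10 counts over all 12 libraries, and are 10 of the 25446 genes tested out of 57180 listed.

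NADPH carries the reducing power for building fatty acids, sterols, proline and deoxynucleotides, and for recycling glutathione and thioredoxin. The oxidative branch of the pentose phosphate pathway makes it from glucose 6-phosphate in the cytosol, and the non-oxidative branch rearranges the resulting sugar phosphates into ribose 5-phosphate or back into glycolytic intermediates. Isocitrate dehydrogenases, malic enzymes, folate enzymes and, in mitochondria, the transhydrogenase are further sources, and pluripotent cells, which divide fast, draw on these pools for nucleotide and lipid synthesis.

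The libraries came from a mouse E14 embryonic stem cell (ESC) line, a chosen clone in which doxycycline (DOX) turns on a CRISPR interference repressor placed in the Tigre locus, so that guide RNAs aimed at a start site repress that gene. The Neg line carried scramble guides (Neg#1 to Neg#4) and the 3xKD line carried guides to *Pcx*, *Me1* and *Me2*, that is pyruvate carboxylase, which makes oxaloacetate from pyruvate, and the cytosolic and the mitochondrial malic enzyme, which return malate to pyruvate. Each line was sequenced as ESCs, kept in N2B27 with 2iLIF, and as EpiLCs day 2, the formative-like cells reached after 2 days in FAX medium (Activin A, Fgf2 and XAV939), with 3 libraries in each of the 4 groups. Both lines carry the repressor, and the methods describe antibiotic selection and low oxygen for all groups alike. They name DMSO or DOX for the cultures, the study presents these expression data as those of cells given DOX, and the labels give neither agent for any library. Each set of guides was carried by 1 line, so that line and guides cannot be told apart.

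The depth ran from 11221023 to 19652197 estimated counts. The targeted genes were called lower in 3xKD in both states, *Pcx* by −1.14 in ESCs and −1.05 in EpiLCs day 2 on the log2 scale, *Me1* by −0.89 and −1.05, and *Me2* by −0.95 and −0.98. *Me3*, the remaining malic enzyme gene, had group means under 0.2 CPM. All 10 naive markers were called lower and all 6 formative markers higher in EpiLCs day 2 than in ESCs in both lines. Among markers of other cell types, summed levels in ESCs lay between 7.19 and 9.57 CPM in Neg and between 24.7 and 25.9 CPM in 3xKD for the fibroblast list (4 of 5 markers tested, 1 called), and in EpiLCs day 2 between 68.2 and 70.9 CPM in Neg and between 23.3 and 27.6 CPM in 3xKD for the neural list (3 markers, 1 called). The fibroblast list in EpiLCs lay between 4.676 and 5.435 CPM in Neg and between 9.27 and 12.78 CPM in 3xKD (1 called). The primitive endoderm list (5 markers) lay between 20.14 and 23.22 CPM in Neg ESCs and between 27.64 and 30.04 in 3xKD ESCs (1 called higher). In EpiLCs it lay between 23.34 and 27.81 CPM in Neg and between 17.64 and 19.54 in 3xKD (2 called lower). The trophoblast and mesoderm lists stayed at or under 5.023 CPM in every library, with 1 trophoblast marker called lower in 3xKD ESCs. No marker tested was at 0 in a whole group. The part of these cells in the results below was not tested, and in bulk RNA fewer cells of a type and less RNA per cell cannot be told apart.

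Levels of different genes can be compared only per transcript length, and for this each gene's share of the summed TPM of the 10 genes was taken within each library. *Tkt* held the most in all 12 libraries, with 32.2% ± 0.22 in Neg ESCs, 38.5% ± 1.01 in 3xKD ESCs, 39.4% ± 0.89 in Neg EpiLCs and 44.7% ± 1.06 in 3xKD EpiLCs (mean ± SD, n = 3 libraries here and throughout). *Taldo1* came next in every group, at 14.5% to 17.4%, and *Rpia* last, at 0.50% to 0.67%. The TPM ranges of these genes did not overlap those of their neighbours in the order in any group. Most of the *Tkt* TPM was assigned to transcripts annotated without a coding sequence or as nonsense-mediated decay forms, as given below.

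**Figure D1:**
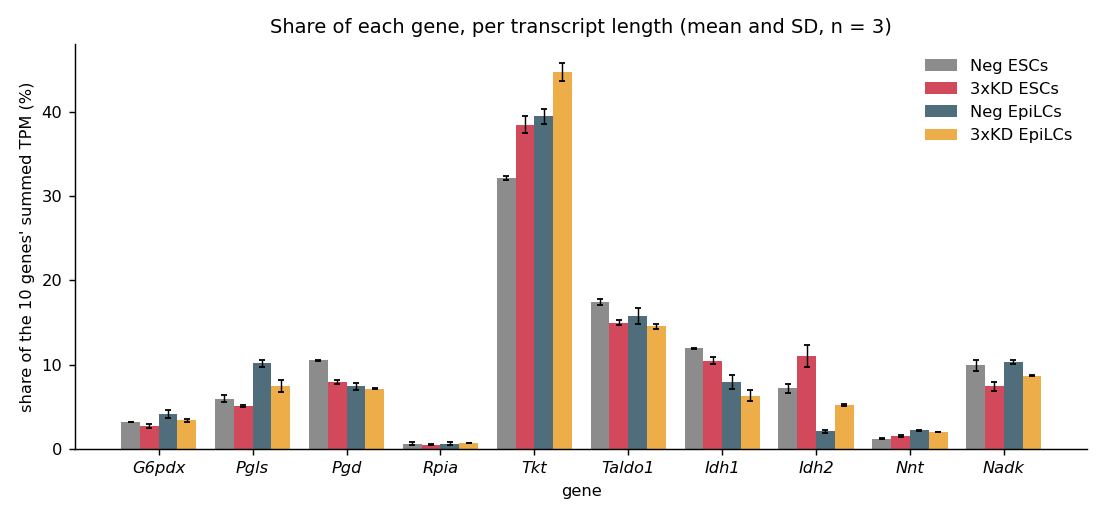
Share of each of the 10 genes in their summed TPM (y axis, percent) in the 4 groups, as the mean of 3 libraries with the SD. *Tkt* has the tallest bars in all groups, and *Idh2* runs from 2.06% in Neg EpiLCs to 11.025% in 3xKD ESCs.

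Between these ends the order moved with state and line. The widest move was that of *Idh2*, which held 7.16% in Neg ESCs (place 6), 11.025% in 3xKD ESCs (place 3), 2.06% in Neg EpiLCs (place 9) and 5.18% in 3xKD EpiLCs (place 7). In Neg ESCs the neighbours *Idh1*, *Pgd*, *Nadk*, *Idh2* and *Pgls* overlapped pairwise in their TPM ranges, although within a library *Idh1* was above *Pgd*, *Nadk* above *Idh2* and *Idh2* above *Pgls* in 3 of 3. In 3xKD ESCs *Idh2* overlapped *Idh1* and *Pgd* overlapped *Nadk*, and each pair kept its order in 2 of the 3 libraries. In Neg EpiLCs *Nadk* overlapped *Pgls*, *Idh1* overlapped *Pgd* and *Nnt* overlapped *Idh2*, and in 3xKD EpiLCs the run from *Nadk* through *Pgls*, *Pgd* and *Idh1* to *Idh2* overlapped step by step. All other neighbours were apart.

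The share of the oxidative branch (*G6pdx*, *Pgls* and *Pgd*) was 19.6% ± 0.51 in Neg ESCs and 15.7% ± 0.32 in 3xKD ESCs, and 21.7% ± 0.79 in Neg EpiLCs and 18.0% ± 0.67 in 3xKD EpiLCs. The share of the non-oxidative branch (*Tkt*, *Taldo1* and *Rpia*) was 50.2% ± 0.44 and 53.9% ± 1.19 in ESCs, and 55.8% ± 0.42 and 59.9% ± 0.88 in EpiLCs. In each state the Neg and 3xKD libraries did not overlap on either share, with the oxidative share lower and the non-oxidative share higher in 3xKD. Shares of a fixed sum move against each other, and *Tkt*, whose TPM lay mostly outside protein-coding transcripts, is the largest part of it.

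Promoters from RefSeq (300 bases, 250 before the start site and 50 after) were given for 9 of the 10 genes (all but *Nnt*), 12 in all, and each matched GRCm39 at 1 place. They were searched on both strands for the core of the antioxidant response element (TGACNNNGC), the palindromic E-box (CACGTG) and the core of the hypoxia response element (ACGTG, which overlaps the E-box). Of all 32851 promoters in the table, 12.39%, 7.15% and 19.62% hold these letters. Those of *Idh2* (chr7:79765049-79765348, minus strand) and *Tkt* (chr14:30270838-30271137, plus strand) are shown because both genes were called higher in 3xKD ESCs, and that of *G6pdx* (chrX:73472437-73472736, minus strand) because it holds 2 of the 3 motifs, in capitals, while the gene was called in no comparison.
Idh2: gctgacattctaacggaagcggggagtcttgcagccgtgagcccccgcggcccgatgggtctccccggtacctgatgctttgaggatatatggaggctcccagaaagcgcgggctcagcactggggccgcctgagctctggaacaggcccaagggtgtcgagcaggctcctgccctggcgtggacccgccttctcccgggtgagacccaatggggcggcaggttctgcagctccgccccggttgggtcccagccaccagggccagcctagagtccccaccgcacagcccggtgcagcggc
Tkt: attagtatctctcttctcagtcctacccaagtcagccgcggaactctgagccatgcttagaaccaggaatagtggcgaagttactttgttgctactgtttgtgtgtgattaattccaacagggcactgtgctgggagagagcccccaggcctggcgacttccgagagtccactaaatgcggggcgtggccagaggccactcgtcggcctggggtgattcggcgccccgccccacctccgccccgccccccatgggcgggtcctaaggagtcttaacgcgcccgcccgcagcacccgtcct
G6pdx: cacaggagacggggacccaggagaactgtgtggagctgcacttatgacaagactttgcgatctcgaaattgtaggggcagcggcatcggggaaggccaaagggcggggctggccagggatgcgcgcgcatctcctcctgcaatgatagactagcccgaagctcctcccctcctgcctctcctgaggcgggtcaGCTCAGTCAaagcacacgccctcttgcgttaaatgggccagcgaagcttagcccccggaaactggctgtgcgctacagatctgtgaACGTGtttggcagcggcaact
The *Idh2* and *Tkt* windows hold none of the 3 motifs. In *G6pdx* the antioxidant core stands 57 bases before the start site on the opposite strand and the hypoxia core 29 bases after it. Over the 9 genes, 2 (*G6pdx* and *Pgd*) had an antioxidant core, 2 (*G6pdx* and *Nadk*) a hypoxia core and 1 (*Nadk*) an E-box. A match describes letters in a window and no more.

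The first question of the design was what repression of *Pcx*, *Me1* and *Me2* did in ESCs. *Idh2*, *Tkt* and *Nnt* rose, by 2.14, 1.57 and 1.67 times, and none of the 10 genes was called lower. A gene was called where the adjusted p was under 0.01 and the log2 fold change was beyond 0.58 in size (1.495 times). By these limits 3 of 10 were called, against 15.3% of all genes tested (8.5% higher and 6.78% lower). Their median log2 fold change was 0.21, against 0.03 over all genes tested. *Taldo1*, *Idh1* and *Pgls* were higher by 0.20 to 0.23 on the log2 scale with adjusted p under the limit and the fold under it, so that 6 of 10 passed on p alone, all higher, where 31.6% of all genes did (15.6% higher and 16% lower). In a fit with offsets for transcript length, *Idh1* and *Pgls* did not pass (adjusted p = 0.0603 and 0.0397). Adjusted p-values are those of edgeR's quasi-likelihood test, corrected by Benjamini-Hochberg over all genes tested. The study's methods give at least 3 biological replicates for its experiments unless a legend differs. Since nothing in the labels says that these were separate cultures, the p-values measure only the spread between these libraries.

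In EpiLCs day 2, *Idh2* and *Rpia* rose in 3xKD, by 3.24 and 1.55 times, and none of the 10 genes was called lower. That is 2 of 10, against 13.2% of all genes tested (7.88% higher and 5.35% lower). The median was 0.13, against 0.03 over all genes. On p alone 5 were higher (*Idh2*, *Tkt*, *Rpia*, *Pgd* and *Taldo1*) and 1 lower (*Pgls*), where 29.9% of all genes passed (14.3% higher and 15.6% lower). With transcript-length offsets *Rpia*, *Pgd*, *Taldo1* and *Pgls* did not pass (adjusted p = 0.26, 0.0159, 0.0929 and 0.0546).

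**Figure D2:**
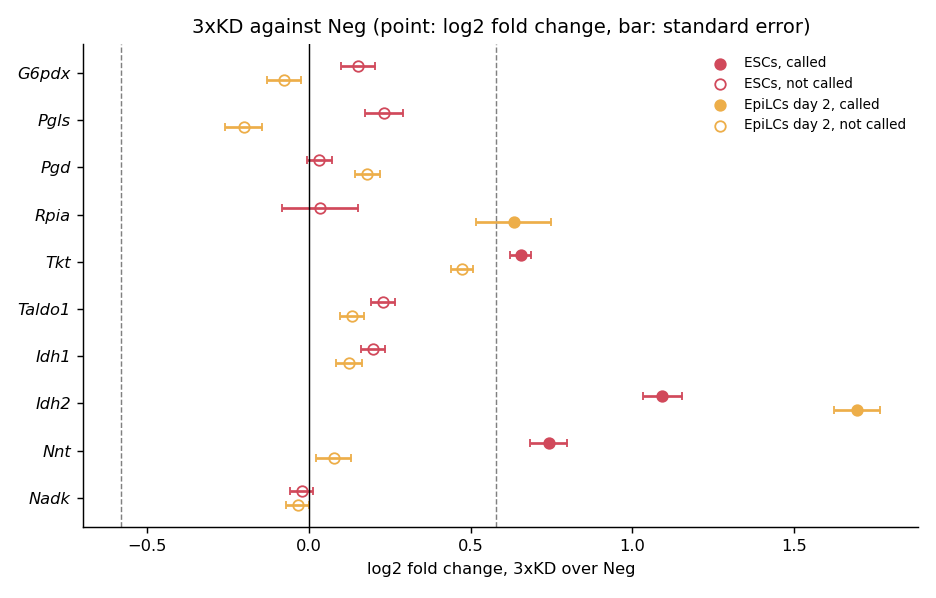
Log2 fold change of 3xKD over Neg (x axis) with its standard error for the 10 genes in ESCs and in EpiLCs day 2. Filled points passed both limits, dashed lines mark ±0.58 on the log2 scale, and *Idh2* lies farthest to the right in both states, at 1.09 and 1.70.

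**Figure D3:**
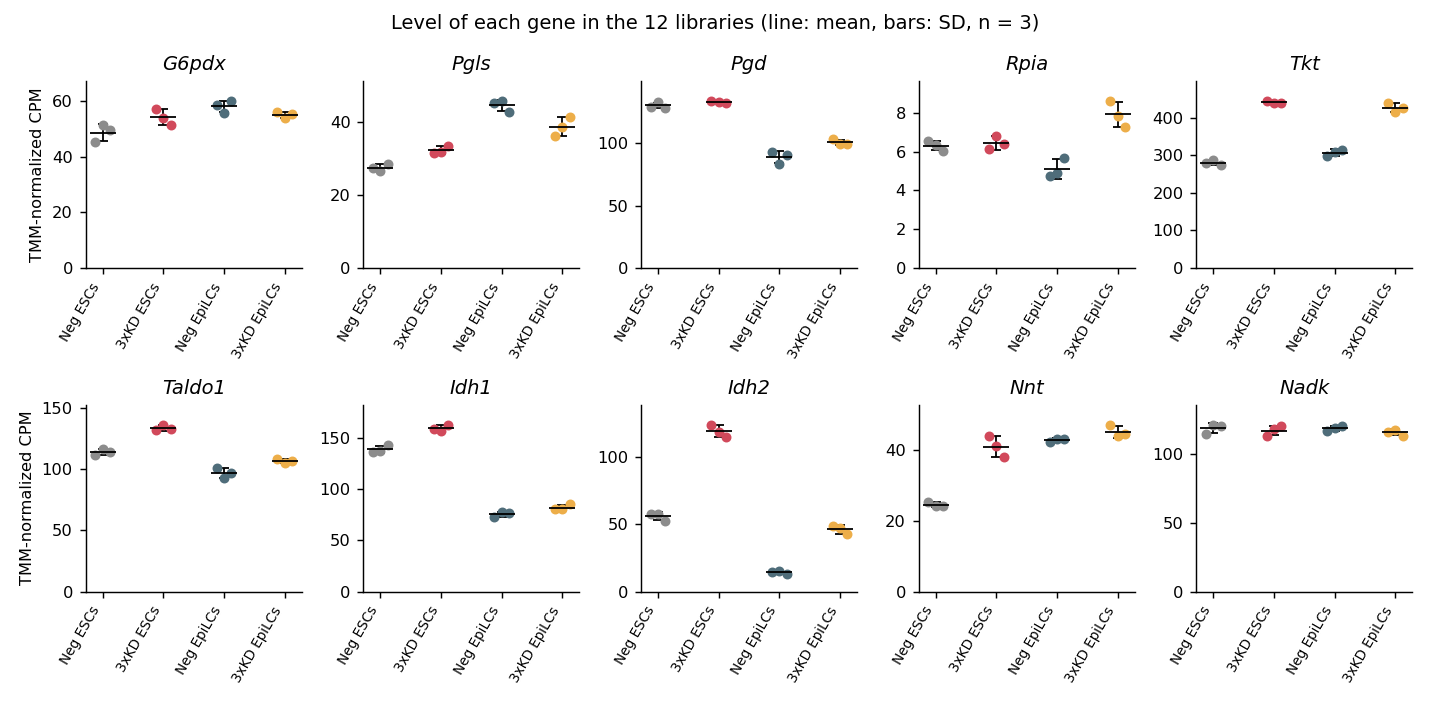
TMM-normalized CPM (y axis, from 0) of each of the 10 genes in the 12 libraries, as points, with the mean and SD of each group. The *Idh2* groups lie apart from each other, while the 4 *Nadk* groups overlap near 118 CPM.

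*G6pdx* (chrX:73449857-73472819, minus strand) encodes glucose-6-phosphate dehydrogenase, the first and rate-limiting step of the oxidative branch. It stood at 45.1, 51.2 and 49.5 CPM in Neg ESCs, 57.1, 53.9 and 51.4 in 3xKD ESCs, 58.4, 55.8 and 59.97 in Neg EpiLCs and 56.0, 53.8 and 55.4 in 3xKD EpiLCs. The lowest 3xKD ESC library was just above the highest Neg ESC library, and the EpiLC groups overlapped. The log2 fold change of 3xKD over Neg was 0.15 ± 0.05 (standard error) in ESCs (adjusted p = 0.0328) and −0.08 ± 0.05 in EpiLCs (adjusted p = 0.292), neither of them called. The 95% intervals were 0.05 to 0.26 and −0.18 to 0.03.

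*Pgls* (chr8:72044202-72053768, plus strand) encodes 6-phosphogluconolactonase, the second step. Its levels were 27.3, 26.5 and 28.5 CPM in Neg ESCs, 31.6, 31.8 and 33.4 in 3xKD ESCs, 45.1, 45.7 and 42.8 in Neg EpiLCs and 36.1, 38.7 and 41.3 in 3xKD EpiLCs. The 4 groups did not overlap, and 3xKD lay above Neg in ESCs and below it in EpiLCs. The log2 fold changes were 0.23 ± 0.06 (adjusted p = 0.00459) and −0.20 ± 0.06 (adjusted p = 0.00883), both short of the fold limit. With transcript-length offsets neither passed on p (0.0397 and 0.0546).

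*Pgd* (chr4:149233246-149251228, minus strand) encodes 6-phosphogluconate dehydrogenase, which makes the second NADPH of the branch. It stood at 129.3, 133.1 and 128.7 CPM in Neg ESCs, 133.9, 133.5 and 132.4 in 3xKD ESCs, 92.8, 83.5 and 90.6 in Neg EpiLCs and 103.2, 99.7 and 99.8 in 3xKD EpiLCs. The ESC groups overlapped, whereas in EpiLCs all 3xKD libraries were above all Neg libraries. The log2 fold change was 0.03 ± 0.04 in ESCs (adjusted p = 0.564) and 0.18 ± 0.04 in EpiLCs (adjusted p = 0.00131), the latter below the fold limit.

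*Rpia* (chr6:70742704-70769216, minus strand) encodes ribose 5-phosphate isomerase, which turns ribulose 5-phosphate into the ribose of nucleotides. It had the fewest reads of the 10 genes, between 73 and 139 counts per library. Levels were 6.56, 6.33 and 6.07 CPM in Neg ESCs, 6.14, 6.83 and 6.40 in 3xKD ESCs, 4.74, 4.90 and 5.69 in Neg EpiLCs and 8.62, 7.86 and 7.30 in 3xKD EpiLCs. The ESC groups overlapped and the EpiLC groups did not. *Rpia* rose in 3xKD EpiLCs with a log2 fold change of 0.63 ± 0.12 (adjusted p = 0.00032), and in ESCs the value was 0.04 ± 0.12 (adjusted p = 0.855). The EpiLC value was 0.57 without 3xKD EpiLC replicate 1 and 0.37 with transcript-length offsets (adjusted p = 0.26), and the call was lost in both.

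*Tkt* (chr14:30270156-30299612, plus strand) encodes transketolase, which links the pathway to glycolysis by moving carbon units between sugar phosphates. It stood at 280.6, 287.8 and 273.1 CPM in Neg ESCs and 444.9, 440.5 and 439.8 in 3xKD ESCs, with 299.3, 308.1 and 315.6 in Neg EpiLCs and 438.9, 415.9 and 426.4 in 3xKD EpiLCs. All 6 3xKD libraries lay above all 6 Neg libraries, and within 3xKD the ESC and EpiLC ranges were close to each other. The log2 fold change was 0.66 ± 0.03 in ESCs (adjusted p = 1.7e-10), which was called, and 0.47 ± 0.03 in EpiLCs (adjusted p = 7.2e-09), which was below the fold limit. The difference between these values was −0.18 ± 0.05 (adjusted p = 0.0121) and was not called, although 10 of 24 alternatives called it, DESeq2 among them.

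*Taldo1* (chr7:140972053-140982886, plus strand) encodes transaldolase, the partner of transketolase in the non-oxidative branch. Its levels were 112, 116.4 and 113.9 CPM in Neg ESCs, 131.9, 136.4 and 132.6 in 3xKD ESCs, 101.4, 92.8 and 96.9 in Neg EpiLCs and 108.1, 105 and 106.6 in 3xKD EpiLCs. The 4 groups were apart, with 3xKD above Neg in each state. The log2 fold changes were 0.23 ± 0.04 in ESCs (adjusted p = 7.4e-05) and 0.13 ± 0.04 in EpiLCs (adjusted p = 0.00791), neither past the fold limit.

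*Idh1* (chr1:65196781-65225721, minus strand) encodes the cytosolic and peroxisomal NADP-linked isocitrate dehydrogenase, which turns isocitrate into α-ketoglutarate. It stood at 136.3, 137.4 and 142.7 CPM in Neg ESCs, 158.8, 156 and 162.8 in 3xKD ESCs, 72.3, 77.3 and 76.2 in Neg EpiLCs and 80.4, 80.4 and 85.2 in 3xKD EpiLCs. All groups were apart, and the step between states was larger than that between lines. The 3xKD effect was 0.20 ± 0.04 in ESCs (adjusted p = 0.00034) and 0.12 ± 0.04 in EpiLCs (adjusted p = 0.0184), not called in either. With transcript-length offsets the EpiLC value was −0.10 (adjusted p = 0.492). The study proposes that IDH1 in these cells carboxylates α-ketoglutarate to isocitrate, the reverse reaction, which depends on NADPH.

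*Idh2* (chr7:79741431-79765535, minus strand) encodes the mitochondrial NADP-linked enzyme of the same reaction, and showed the largest log2 fold changes of the 10 genes in all 4 pairwise comparisons. It stood at 57.5, 57.5 and 52.3 CPM in Neg ESCs and at 123.6, 118.1 and 114.6 in 3xKD ESCs. In EpiLCs it stood at 14.2, 15.5 and 13.0 CPM in Neg and 48.9, 47.2 and 42.4 in 3xKD. No groups overlapped, and the 3xKD EpiLC libraries came up to just below the Neg ESC libraries. The log2 fold change of 3xKD over Neg was 1.09 ± 0.06 in ESCs (adjusted p = 4.3e-10) and 1.70 ± 0.07 in EpiLCs (adjusted p = 2.8e-11), and it was called under all 25 alternatives in both states.

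Per transcript length, the ratio of *Idh2* to *Idh1* TPM was 0.640, 0.601 and 0.560 in the Neg ESC libraries and 1.22, 1.01 and 0.943 in the 3xKD ESC libraries. It was 0.285, 0.248 and 0.247 in Neg EpiLCs and 0.819, 0.926 and 0.736 in 3xKD EpiLCs. The mitochondrial transcript was thus the rarer of the pair in all Neg libraries and in 3xKD EpiLCs, and near parity in 3xKD ESCs. Neg and 3xKD did not overlap in either state, and the 3xKD EpiLC ratios lay above those of Neg ESCs.

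Pluripotency markers moved with line and state as well. The summed naive markers lay between 5267 and 5425 CPM in Neg ESCs and between 4058 and 4133 CPM in 3xKD ESCs, where 5 of 10 were called lower. In EpiLCs they lay between 346.5 and 360.5 CPM in Neg and between 478.8 and 492.0 CPM in 3xKD, with 4 called higher and 1 lower. The summed formative markers lay between 3024 and 3389 CPM in Neg EpiLCs and between 1728 and 1792 CPM in 3xKD EpiLCs, with 5 of 6 called lower. The share of all genes called lower was 6.78% in ESCs and 5.35% in EpiLCs, where 7.88% were called higher. Thus *Idh2* and the naive list both stood higher in ESCs than in EpiLCs and higher in 3xKD than in Neg EpiLCs, but in ESCs *Idh2* was higher and the naive list lower in 3xKD. The part of cell state in the values of *Idh2* was not tested.

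*Nnt* (chr13:119470859-119566380, minus strand) encodes the transhydrogenase of the inner mitochondrial membrane, which uses the proton gradient to make NADPH from NADH. It stood at 25.3, 24.0 and 24.3 CPM in Neg ESCs, 43.9, 41.0 and 37.9 in 3xKD ESCs, 42.2, 43.1 and 43.2 in Neg EpiLCs and 47.1, 44.0 and 44.4 in 3xKD EpiLCs. Neg ESCs were low and the other 3 groups close together, with 3xKD ESCs and Neg EpiLCs overlapping. *Nnt* rose in 3xKD ESCs, with a log2 fold change of 0.74 ± 0.06 (adjusted p = 2.5e-08), and in EpiLCs the value was 0.08 ± 0.05 (adjusted p = 0.316, 95% interval −0.03 to 0.18). The reference genome comes from C57BL/6J mice, which lack part of this gene, whereas E14 cells come from a 129 strain, and the effect of that on read counts was not tested.

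*Nadk* (chr4:155646806-155675465, plus strand) encodes the cytosolic NAD kinase, which makes the NADP that the other enzymes reduce. It stood at 114.8, 121.4 and 120.5 CPM in Neg ESCs, 113.4, 118.1 and 120.2 in 3xKD ESCs, 116.8, 119.2 and 120.4 in Neg EpiLCs and 116.5, 117.9 and 114 in 3xKD EpiLCs. All 4 groups overlapped. The 3xKD effect was −0.02 (95% interval −0.09 to 0.05) in ESCs and −0.03 (−0.10 to 0.03) in EpiLCs, with adjusted p of 0.682 and 0.5.

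The second question was how the genes moved as ESCs became EpiLCs. In Neg, *Idh2* and *Idh1* fell and *Nnt* and *Pgls* rose past both limits. In 3xKD *Idh1* and *Idh2* fell past both limits and none of the 10 genes was called higher. These are 4 of 10 in Neg, where 20.8% of all genes tested were called (9.78% higher and 11% lower), and 2 of 10 in 3xKD, where 18.7% were (9.42% higher and 9.32% lower). The medians of the 10 genes were −0.12 in Neg and −0.03 in 3xKD, against 0.01 over all genes in each line. The comparisons within a state and within a line share their libraries, so that they are not separate lines of evidence.

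**Figure D4:**
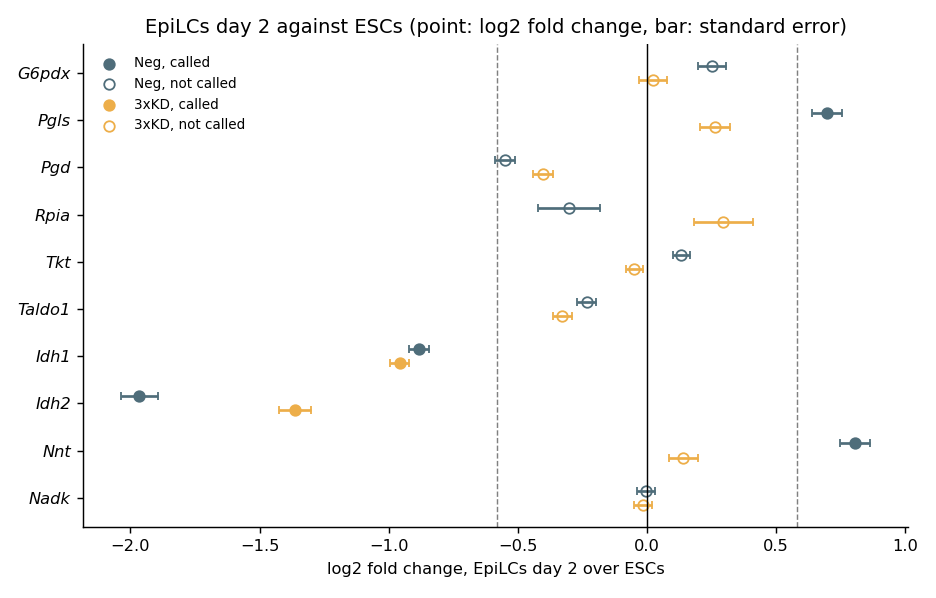
Log2 fold change of EpiLCs day 2 over ESCs (x axis) with its standard error for the 10 genes in Neg and in 3xKD, with filled points past both limits and dashed lines at ±0.58. *Idh2* and *Idh1* lie to the left in both lines, and *Nnt* and *Pgls* lie past the right limit in Neg alone.

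In the oxidative branch the genes went different ways. *Pgd* was lower in EpiLCs by −0.55 ± 0.04 in Neg (adjusted p = 3.8e-09), just short of the fold limit. In 3xKD its value was −0.40 ± 0.04 (adjusted p = 2.1e-07), further from that limit. *Pgls* rose in Neg by 0.70 ± 0.06 (adjusted p = 3.2e-08), to 1.62 times its ESC level, and was 0.26 ± 0.06 in 3xKD. *G6pdx* was 0.25 ± 0.05 in Neg (adjusted p = 0.00087) and 0.02 ± 0.05 in 3xKD (adjusted p = 0.768). The first and the last dehydrogenase of the branch thus had opposite signs in Neg.

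The non-oxidative branch moved little. *Taldo1* was −0.23 ± 0.04 in Neg and −0.33 ± 0.04 in 3xKD (adjusted p = 5.7e-05 and 1.3e-06). *Tkt* was 0.13 ± 0.03 in Neg (adjusted p = 0.00319) and −0.05 ± 0.03 in 3xKD (adjusted p = 0.262). For *Rpia*, the value was −0.30 ± 0.12 in Neg and 0.30 ± 0.11 in 3xKD (adjusted p = 0.0515 and 0.0462), with the groups apart in both lines. None of these passed both limits.

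*Idh2* fell by 1.97 on the log2 scale in Neg (standard error 0.07, adjusted p = 5.5e-13), to 0.256 of its ESC level. In 3xKD it fell by 1.36 (standard error 0.06, adjusted p = 1.3e-11), to 0.389 of that level. *Idh1* fell by 0.88 in Neg and 0.96 in 3xKD (standard error 0.04 in both, adjusted p = 6.2e-12 and 2.8e-12). Cytosolic and mitochondrial isocitrate dehydrogenase transcripts were thus both lower in EpiLCs in each line, the mitochondrial one by more. *Nnt* rose by 0.81 ± 0.06 in Neg (adjusted p = 4.6e-09) and was 0.14 ± 0.05 in 3xKD (adjusted p = 0.0486), and *Nadk* was −0.0029 and −0.0155.

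The third question was whether the 3xKD effect differed between states, which the interaction of line and state tests directly, at an adjusted p under 0.01 with no fold limit. It was called for *Idh2* (0.60 ± 0.09, adjusted p = 0.00023), whose effect was larger in EpiLCs, for *Nnt* (−0.67 ± 0.08, adjusted p = 1.9e-05), whose effect was larger in ESCs, and for *Pgls* (−0.43 ± 0.08, adjusted p = 0.00131), which had opposite signs. That is 3 of 10 genes, where 10% of all genes tested were called (4.76% higher and 5.26% lower). With transcript-length offsets *Idh2* (0.49, adjusted p = 0.0525) and *Pgls* (−0.45, adjusted p = 0.0262) were not called, nor were most of the genes called otherwise (731 in place of 2549 over all genes). *Rpia* had a difference of 0.60 ± 0.17 (adjusted p = 0.0194), which was not called. For the remaining genes it was −0.23 ± 0.08 for *G6pdx* (adjusted p = 0.0493), 0.15 ± 0.05 for *Pgd*, −0.09 ± 0.05 for *Taldo1*, −0.07 ± 0.05 for *Idh1* and −0.01 ± 0.05 for *Nadk*.

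Counting libraries instead of fitting a model, 7 of 10 genes had 3xKD and Neg groups that did not overlap in ESCs and 8 of 10 in EpiLCs, where 49% and 47.2% of all genes tested did not overlap. For EpiLCs against ESCs these were 9 in Neg and 8 in 3xKD, against 51.7% of all genes in each line. Of all genes tested, 15032 had a mean of 1 CPM or more, as did each of the 10 genes. The part of expression level in these shares was not tested. Within a group the coefficient of variation was lowest for *Pgd* and *Tkt*, at 0.57% and 0.62% in their tightest group, and reached 9.92% for *Rpia*.

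The wider pathway was read from lists of related genes. Of 17 neighbours of the pentose phosphate pathway 15 were tested, with 3 called higher and 1 called lower in 3xKD ESCs, and 3 against 2 in 3xKD EpiLCs, and medians of −0.08 and −0.05. Over all genes tested 8.5% were called higher and 6.78% lower in ESCs, and 7.88% and 5.35% in EpiLCs, which is the background for each list here. *H6pd*, whose product starts an oxidative branch inside the endoplasmic reticulum, rose by 0.84 ± 0.11 in ESCs (adjusted p = 1.2e-05) and 0.61 ± 0.11 in EpiLCs (adjusted p = 0.00023). The phosphoglucomutases *Pgm1* (1.27 and 0.77) and *Pgm2* (0.64 and 0.77), which move phosphate on sugar phosphates, also rose in both states. *Prps1l3*, related to the synthetases that turn ribose 5-phosphate into a nucleotide precursor, was lower in both (−0.67 and −0.82), and the transketolase relative *Tktl2* was called lower in EpiLCs (−0.70). *Rpe*, the epimerase that shares its substrate with *Rpia*, was −0.47 and −0.17, not called.

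A list of 14 other sources of NADPH and NADP also held genes of NAD synthesis, among them *Nadsyn1*, *Nmnat1* and *Nmnat2*. Of the 14, 5 were called in ESCs (4 higher) and 3 in EpiLCs, all higher. Over all genes 15.3% and 13.2% were called, and the list medians were 0.43 and 0.31. *Mthfd2*, a mitochondrial folate dehydrogenase, rose by 0.80 ± 0.04 and 0.74 ± 0.04 (adjusted p = 1.5e-10 and 3.3e-10). *Aldh1l1*, a cytosolic folate enzyme that makes NADPH, rose by 0.59 and 0.65, and *Nadsyn1*, the last step of one route to NAD, by 1.02 and 1.46. Of the enzymes of the adenylyl transfer step to NAD, *Nmnat2* was called higher (1.02) and *Nmnat1* lower (−0.62) in ESCs.

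Beside *Idh1* and *Idh2*, the 3 subunits of the NAD-linked enzyme were not called: *Idh3a* was 0.21 and 0.15, *Idh3b* 0.20 and −0.21 and *Idh3g* 0.09 and 0.01 in ESCs and EpiLCs. In that list of 7 genes of citrate and isocitrate handling, 1 was called higher in each state, *Slc25a1*, the mitochondrial citrate carrier (0.78 ± 0.04 and 1.11 ± 0.04, adjusted p = 4e-10 and 1.7e-11). The list medians were 0.21 and 0.05, and 1 of 7 is near the 15.3% and 13.2% called over all genes.

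Among enzymes that spend NADPH, 21 of the 23 listed were tested, and 10 were called higher in 3xKD ESCs and 8 in 3xKD EpiLCs, with none called lower and medians of 0.47 and 0.28. Over all genes 8.5% and 7.88% were called higher. Those called in both states included the sterol enzymes *Dhcr7* (1.39 and 0.89) and *Tm7sf2* (0.87 and 0.97), the proline enzymes *Pycr1* (1.00 and 1.35) and *Aldh18a1* (0.97 and 0.86), and the reductases *Nqo1* (0.80 and 0.96), *Blvrb* (1.14 and 0.89) and *Cbr1* (0.65 and 0.65). *Txnrd1*, which recycles thioredoxin (0.72), and *Por*, which feeds electrons to cytochromes P450 (0.64), were called in ESCs. On p alone 13 were higher and 1 lower in ESCs, where 31.6% of all genes passed, and 14 were higher and 6 lower in EpiLCs, where 29.9% did.

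**Figure D5:**
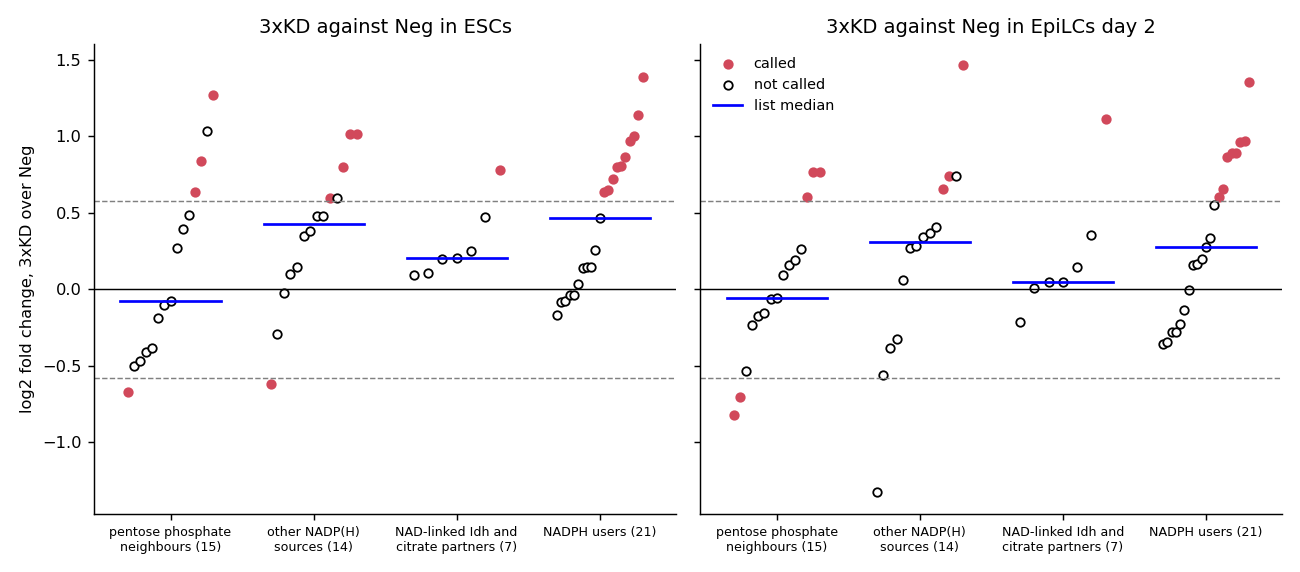
Log2 fold change of 3xKD over Neg (y axis) for each tested gene of 4 lists (x axis, number tested in parentheses) in ESCs and in EpiLCs day 2, with red points past both limits, blue lines at the list medians and dashed lines at ±0.58. Called NADPH users all lie above 0, 10 in ESCs and 8 in EpiLCs, while the pentose phosphate neighbours have called genes on both sides.

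Some of these genes share sequence or position with others. *Zfp710* overlaps the 3′ part of *Idh2* by 2491 bp on the opposite strand and moved the same way, with 0.29 and 0.59 for 3xKD over Neg in ESCs and EpiLCs and −0.95 and −0.65 for EpiLCs over ESCs in Neg and 3xKD (named after its values were seen, as are the other overlapping genes). *Ikbkg* spans the whole of *G6pdx* on the opposite strand and was 0.32 and 0.21 in 3xKD over Neg. *Paip1* overlaps *Nnt* by 1499 bp on the opposite strand, at −0.03 and −0.17. The libraries were directional, but whether the counting used strand is not given in the sources used here, and the part of these neighbours in the counts was not tested. Of the 50-base stretches of the leading transcript, 12.75% in *Taldo1*, 3.98% in *G6pdx*, 2.56% in *Idh1* and 2.45% in *Pgd* occur in transcripts of other genes, and none in the other 6.

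The quantifier divided the 10 genes between 59 transcripts. In *Idh2* the transcript ENSMUST00000107384, with 11 exons and a coding sequence, held 66.9%, 69.5%, 62.8% and 71.6% of the gene's TPM in Neg ESCs, 3xKD ESCs, Neg EpiLCs and 3xKD EpiLCs. In *Nnt* the coding ENSMUST00000099149 held 79.1% to 87.4%. In *Tkt* the largest part went to ENSMUST00000225857, annotated without a coding sequence (52.3% to 55.6%), and ENSMUST00000162356, a short nonsense-mediated decay form, held 31.0% to 35.8%. The *Tkt* retained-intron form ENSMUST00000225039 held 6.98% ± 0.32 in Neg ESCs and 1.85% ± 0.66 in 3xKD ESCs. Counting protein-coding transcripts alone, an alternative chosen after seeing the data, *Idh2*, *Nnt* and *Tkt* were still called higher in 3xKD ESCs, and *Idh2* and *Rpia* in 3xKD EpiLCs.

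Medians over whole chromosomes were also taken, and the part of chromosome changes in the values of the 10 genes was not tested. On the chromosomes that hold the 10 genes the median log2 fold change over genes at 1 CPM or more lay between −0.05 and 0.05 in each of the 4 comparisons. Over all tested genes the median farthest from 0 was 0.07, on the chromosome of *Tkt* for EpiLCs against ESCs in 3xKD.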

How the data were processed

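RNA-seq was analysed for 12 libraries in 4 groups of 3, assigned by sample titles, because the labels' cell-type field assigns 1 state per line. Per the submitters' processing notes and the study's methods, the authors trimmed reads with Trim Galore 0.6.7, mapped them to GRCm39 with STAR 2.7.9a and quantified transcripts with Salmon 1.10.1. The deposited tables hold estimated counts, which the authors did not normalize, and TPM, scaled by the authors' software for length and depth. The methods name rRNA depletion and the labels polyA RNA.

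Estimated counts were summed per gene over the authors' transcript-to-gene map and rounded. Genes with at least 10 counts over all libraries were fitted with edgeR 4.0.16 (R 4.3.3, TMM, quasi-likelihood, 4 groups in 1 fit, Benjamini-Hochberg over 25446 genes), where the study used DESeq2. The fit was tested on simulated data. Calls needed an adjusted p under 0.01 and a log2 fold change beyond 0.58 in size, and the difference between states needed the p alone. CPM are TMM-normalized, and intervals of levels cover the spread between libraries. Gene positions came from GENCODE vM39, which matched 99.0% of gene identifiers and 99.9% of counts, and motifs were counted in RefSeq promoters. All 10 genes are named, other list members where called in 3xKD against Neg, and genes outside these where a result turns on them. The list members *Me3*, *Rpe*, *Idh3a*, *Idh3b* and *Idh3g* are named though they were not called. The genes, lists and tests were chosen with earlier results of these data known. The alternatives were other size factors, filters, transcript-length offsets, a replicate block, robust estimation, only the groups compared, adding *G6pd2* counts to *G6pdx*, leaving out each library, DESeq2 1.42.0 and looser limits. A called member of the list of NADPH users is not reported here by name.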

Additional observations from a re-analysis of the deposited data

Results flagged for a closer look

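The difference of the 3xKD effect between EpiLCs day 2 and ESCs passed its test for 3 of the 10 genes (edgeR's quasi-likelihood test of the interaction, adjusted p under 0.01). It was −0.67 for *Nnt* (adjusted p = 1.9e-05), which was higher in 3xKD in ESCs in 3 of 3 libraries by 0.74, with 0.08 in EpiLCs. It was 0.60 for *Idh2* (adjusted p = 0.00023), higher in 3xKD by 1.09 in ESCs and 1.70 in EpiLCs. It was −0.43 for *Pgls* (adjusted p = 0.00131), at 0.23 in ESCs and −0.20 in EpiLCs. The last of these was thus the only one of the 10 genes with groups apart in both states and signs that differed.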

How the results depend on the processing

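Of 1240 values recomputed for the 10 genes over 25 alternatives, 1166 kept their direction and their side of the limits. The calls of *Idh2*, *Nnt* and *Tkt* in ESCs, of *Idh2* in EpiLCs, and of *Idh2*, *Idh1*, *Nnt* and *Pgls* in Neg EpiLCs against ESCs held in all. At an adjusted p under 0.05 with no fold limit, the genes called numbered 7 and 7 for 3xKD against Neg in ESCs and EpiLCs, 8 and 7 for EpiLCs against ESCs in Neg and 3xKD, and 6 for the difference, and over all genes tested 10140, 9694, 11232, 10838 and 4127. The difference was called for 5 with filterByExpr and 1 with transcript-length offsets, and the offsets left 1 called in EpiLCs. Leaving out a library gave 1 to 2 genes called in EpiLCs (1 without 3xKD EpiLC replicate 1) and 3 to 4 for the difference.

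Signs turned only in values that were not called. In *Nadk* they did so for 3xKD against Neg in ESCs with upper-quartile factors (0.0002) and length offsets (0.0286), in EpiLCs with library size alone (0.0244) and protein-coding transcripts (0.0202), for EpiLCs against ESCs in Neg with RLE factors (0.0164), upper-quartile factors (0.0799), length offsets (0.0062) and DESeq2 (0.0154), in 3xKD with protein-coding transcripts (0.0287), RLE (0.0138), upper-quartile factors (0.0573), library size (0.0211), no filter (0.0075) and DESeq2 (0.0140), and for the difference with protein-coding transcripts (0.0438), library size (0.0601), filterByExpr (0.0021) and no filter (0.0121). *Rpia* in ESCs was −0.0431 with protein-coding transcripts, *Tkt* in 3xKD EpiLCs against ESCs 0.0242 with upper-quartile factors, and *Idh1* in EpiLCs −0.1038 with length offsets. With a library left out, *Nadk* lay between −0.0453 and 0.031 in ESCs, −0.0266 and 0.0479 for EpiLCs against ESCs in Neg, −0.027 and 0.0084 in 3xKD, and −0.0619 and 0.0113 for the difference, *Rpia* in ESCs between −0.0075 and 0.0994, and *G6pdx* for EpiLCs against ESCs in 3xKD between −0.0118 and 0.0765. The cause was not tested.

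In their deviations from the group means, same-numbered libraries correlated between −0.135 and 0.101 (18 pairs) and others between −0.145 and 0.184 (36 pairs). Of the 12 libraries, 3 correlated best with their own number, so that no pairing by number was seen. With 3 libraries in a group, this check cannot tell whether same-numbered cultures were handled together. With the replicate block the same genes were called, with 3791, 3277, 5169, 4665 and 2323 calls over all genes. The fit of only the groups compared could not estimate the difference between states, which needs all 4 groups, and was left out there. *Rpia*, at 73 to 139 counts, is limited most by depth.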
